A study of Rattus norvegicus with 30 samples.

Results

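How the effect of WY-14643 on cultured rat hepatocytes moved between 24 h and 48 h of exposure is described here as a difference of differences, the effect of 200 µM at 48 h minus its effect at 24 h. WY-14643, also called pirinixic acid, is a peroxisome proliferator that activates PPARα, a nuclear receptor. The comparison takes 20 of the 30 arrays, which form 4 groups of 5 wells: vehicle at 24 h, 200 µM at 24 h, vehicle at 48 h and 200 µM at 48 h. A further 10 arrays at 8 µM added to the estimate of the spread and served for 1 comparison of doses. All wells held primary hepatocytes from male Sprague Dawley rats, bought frozen and plated on collagen under a Matrigel overlay, given 1% DMSO as vehicle or the compound on day 3 of culture. The age of the rats is not stated. Dosing solutions are described as concentrates made in 1% DMSO, which leaves the solvent content of the treated medium unsure. Each replicate was 1 well, called a separate biological replicate, and nothing says whether wells held cells of different rats, so errors and p-values measure the spread between wells. RNA was hybridised to an Affymetrix rat array that reports 1 signal for each probe set.

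PPARα is a transcription factor that binds fatty acids, pairs with the retinoid X receptor, and sits on DNA elements made of a pair of AGGTCA half-sites. In rodent liver it drives genes of fatty acid uptake, fatty acid oxidation in mitochondria and peroxisomes, and omega-oxidation, and agonists lower many genes of the acute phase response, complement and lipoproteins. Hepatocytes in culture also change on their own with time, losing part of their liver-specific expression and gaining cytoskeletal and matrix genes, so an effect measured against vehicle can move because the treated wells move, because the vehicle wells move, or both.

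Array medians lay between 385 and 439 on 29 of the 30 arrays. The exception was 48 h vehicle replicate 4 (array number 22), with a median of 765, 73.9% of probe sets above the signal filter and a median correlation with the other arrays of its group of 0.896. By the outlier test of the closing section its signal stood apart from the other wells of its group for 19 of 85 named called genes, below them for 18 and above them for Irs2, and the totals are also given without it. For β-actin, the 3′ probe set over the 5′ probe set gave a ratio of 2.86 ± 0.278 (SD, n = 5) in 24 h vehicle wells and 3.31 ± 0.169 in 24 h treated wells, then 2.61 ± 0.313 and 3.10 ± 0.201 at 48 h. For GAPDH the same ratio was 1.19 ± 0.0212 and 1.16 ± 0.0185 at 24 h and 1.18 ± 0.0434 and 1.15 ± 0.00829 at 48 h, so that β-actin was higher and GAPDH lower on average in treated wells at both times. The part of these ratios in the results was not tested. Bulk RNA cannot tell fewer cells of a type apart from less RNA per cell.

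The effect of 200 µM differed between the times for 278 of the 11545 genes tested (2.41%), by limma at a Benjamini-Hochberg adjusted p below 0.05. The difference was higher at 48 h for 150 genes (1.3%) and lower for 128 (1.11%). Every count of called list members below is to be read beside these shares. Without array 22 the numbers were 220 (1.91%) and 268 (2.32%), with 147 of the higher and 126 of the lower genes shared, 215 called only without the array, 5 only with it, and 0 called in opposite directions. The typical standard error of the difference fell from 0.175 to 0.159 on the log2 scale when the array was left out. Without 48 h treated replicate 1 the number of higher genes was 99. The effects themselves covered more genes: at 24 h 1344 genes were higher (11.6%) and 1509 lower (13.1%) than vehicle, and at 48 h 1936 (16.8%) and 1969 (17.1%). All changes are on the log2(signal + 16) scale, which understates changes of dim genes, with standard errors from the fit.

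Most called genes had an effect that grew. Of the 278, 119 were past the threshold at both times in the same direction and further from vehicle at 48 h, 47 of them in the higher set and 72 in the lower set. Another 100 were past it at 48 h alone, 60 higher and 40 lower. The effect was past the threshold at 24 h alone for 36 genes, shrank but stayed past it for 17, and crossed from below vehicle to above it for 6. Read the other way, 137 of the 278 moved from 24 h to 48 h in treated wells alone and 75 in vehicle wells alone. Both moved in the same direction for 35 and in opposite directions for 17, and neither passed for 14. In the same order these were 244, 133, 60, 30 and 21 without array 22. Over all genes, 1282 moved in treated wells (11.1%) and 1139 in vehicle wells (9.87%).

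**Figure D1:**
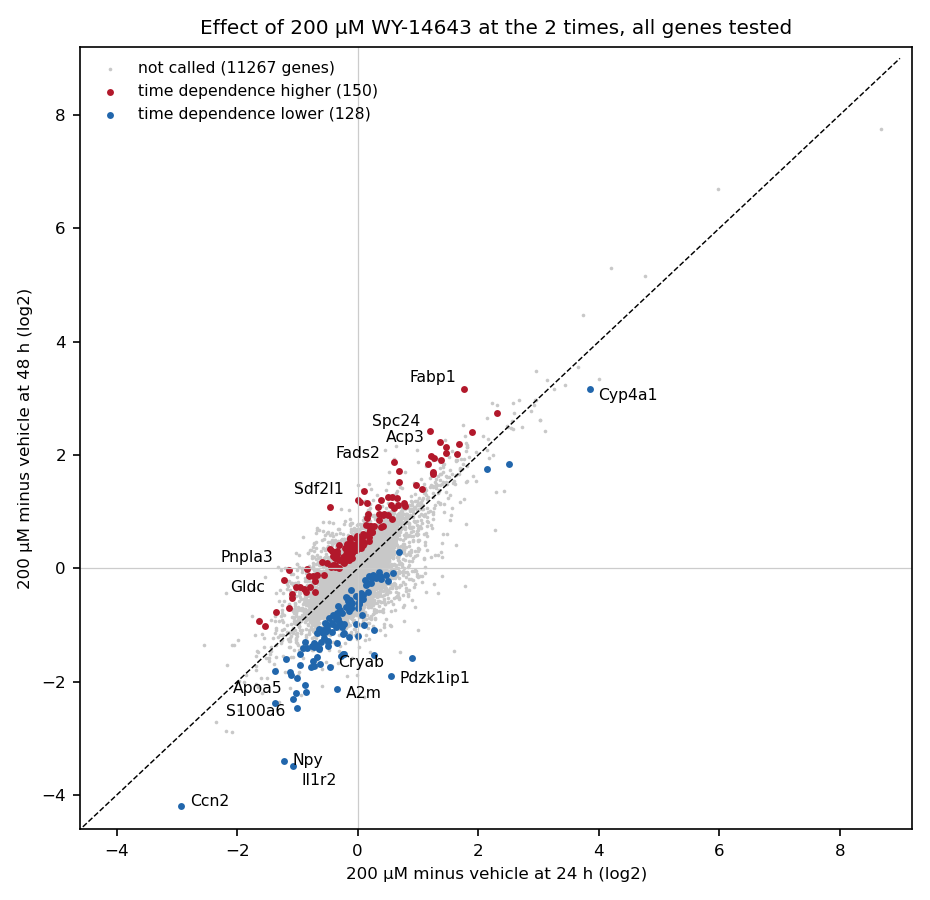
Each point is a gene, with the log2 effect of 200 µM against vehicle at 24 h on the horizontal axis and at 48 h on the vertical axis; the dashed line marks equal effects. The 150 genes called higher (red) lie above the line and the 128 called lower (blue) below it, among 11267 grey genes; Npy, Il1r2 and A2m lie far below the line and Fabp1 far above it.

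Npy encodes neuropeptide Y, a signalling peptide (probe set 1387154_at). Npy signals were 8693, 9158, 8585, 10196 and 9241 in 24 h vehicle wells, 3879, 4133, 3953, 3479 and 4188 in 24 h treated wells, 13179.9, 13685, 15849, 13304 and 15152 in 48 h vehicle wells, and 1125, 1434, 1526, 1463 and 1189 in 48 h treated wells. No group overlapped another: vehicle wells went up with time while treated wells went down. The Npy effect went from -1.22 ± 0.08 (SE) at 24 h to -3.39 ± 0.08 at 48 h, a time dependence of -2.17 ± 0.12 (adjusted p = 1.07e-14). Il1r2, the decoy receptor for interleukin 1 (1387180_at), had mean signals of 4551 ± 474 (SD, n = 5) and 2161 ± 217 in vehicle and treated wells at 24 h, then 5024 ± 1053 and 439 ± 131 at 48 h. Its vehicle wells overlapped between the times and its treated wells did not, and the time dependence was -2.42 ± 0.24 (adjusted p = 4e-08).

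Apoa5 encodes an apolipoprotein that lowers plasma triglyceride and is a known PPARα target in human liver. Apoa5 signals were 14867, 15698, 14779, 15195 and 15939 in 24 h vehicle wells, 7291, 7387, 7961, 6532 and 7249.7 in 24 h treated wells, 17528, 18613, 19422, 12434 and 19476 in 48 h vehicle wells, and 3350.0, 3385, 3699.9, 3663 and 3312 in 48 h treated wells. Treated wells lay below vehicle at both times without overlap, and the low 48 h vehicle value of 12434 is array 22. The effect went from -1.07 ± 0.08 to -2.31 ± 0.08, a time dependence of -1.24 ± 0.12 (adjusted p = 1.7e-08), or -1.35 without array 22. Of the 18 measured genes for apolipoproteins and lipoprotein assembly, Apoa5, Apoc4 (-0.70) and Lcat, the enzyme that esterifies cholesterol in plasma (-0.61), were called lower, and Mttp, which loads lipid onto nascent lipoproteins, was called higher (0.45 ± 0.12). Mttp vehicle wells fell from 9994 ± 685 to 7335 ± 1322, while treated wells were at 15901 ± 364 and 15813 ± 1132 (-0.01 ± 0.08, adjusted p = 0.967). Leaving out any 1 of 8 wells ended the Mttp call, with the highest adjusted p of 0.0688 without 48 h treated replicate 1. The list's median was -0.01, as was that of all genes.

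Acute phase proteins, made by hepatocytes in inflammation, held 5 called genes of 20 measured, all lower: A2m, Serpina3n, Cp, Itih4 and Fgb. Over all genes 1.11% were called lower. The list's median time dependence was -0.22, against -0.01 over all genes, and 9 members were called lower without array 22 and 1 under median centring. A2m, a broad protease inhibitor (1367794_at), had signals of 74375, 77976, 81573, 70616 and 79049.9 in 24 h vehicle wells and 55771, 65449.9, 61161, 63121 and 57975 in 24 h treated wells. At 48 h A2m vehicle wells gave 60608, 62866, 62993, 46053 and 66160.2 and treated wells 14544, 15516, 14581, 12392 and 10844. The small gap between the groups at 24 h became a wide one at 48 h. The A2m effect was -0.34 ± 0.11 at 24 h and -2.14 ± 0.11 at 48 h, and their difference -1.80 ± 0.15 (adjusted p = 2.27e-09).

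Serpina3n, a serine protease inhibitor, had means of 70135 ± 3359 and 50122 ± 3363 at 24 h and 54053 ± 6015 and 22020.4 ± 2109 at 48 h in vehicle and treated wells, a time dependence of -0.81 ± 0.10. Cp, the copper-binding ferroxidase ceruloplasmin, followed with -0.57 ± 0.13 and Itih4, a plasma protein of the inter-α-trypsin inhibitor family, with -0.51 ± 0.11. Fgb, the fibrinogen β chain, was at -0.42 ± 0.11. Its call was ended by leaving out any 1 of 9 wells, with the highest adjusted p of 0.0658 without 24 h vehicle replicate 4. Without array 22 the values were -0.87, -0.66, -0.61 and -0.50 for Serpina3n, Cp, Itih4 and Fgb.

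Complement and coagulation genes held 4 called of 27 measured, all lower, beside 1.11% of all genes. The list median was -0.13. C6, a component of the membrane attack complex, was not past the threshold at 24 h (-0.23 ± 0.17, adjusted p = 0.405) and was at -1.51 ± 0.17 at 48 h, with treated wells at 524 ± 84.3 against 1523 ± 227. C3, the central complement protein, went from -0.54 to -1.13 and C1s, a protease of the classical pathway, from -0.90 to -1.40. Plg, the plasmin precursor, went from -0.52 to -0.98. Hrg, a histidine-rich plasma glycoprotein outside these lists, had means of 33358 ± 1522 and 18312 ± 718 at 24 h and 22104 ± 4388 and 4862 ± 997 at 48 h, a time dependence of -1.31 ± 0.16 (adjusted p = 2.03e-06). The C1s call was ended by leaving out 48 h treated replicate 2 (adjusted p = 0.0511), and the Plg call by any 1 of 7 wells (up to 0.0655, without 48 h treated replicate 1). The median of complement and coagulation genes turned to 0.02 when every array was centred on its median, a setting under which the median of all genes moved to 0.15. Relative to all genes the list stood at -0.13 under both scalings, and median centring left 0 of the 4 calls. With array 22 left out, median centring put the median of all genes at -0.02.

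Cytochromes P450 of xenobiotic metabolism, 23 measured, held 3 called lower and 1 higher, with a list median of 0.01. Over all genes 1.11% were called lower and 1.3% higher. Cyp1a2, which oxidises caffeine and aromatic amines, had signals of 16702, 17035, 16027, 16505 and 17004 in 24 h vehicle wells, 10109.6, 10001, 10604, 9936 and 11573 in 24 h treated wells, 7856, 7509.8, 8078, 6874 and 8801 in 48 h vehicle wells, and 2392, 3139, 2606, 2307 and 2696 in 48 h treated wells. Both vehicle and treated wells went down with time and treated wells went further. The Cyp1a2 time dependence was -0.90 ± 0.11 (adjusted p = 4.12e-06). The male-specific Cyp2c11 was at -1.05 ± 0.21 and Cyp2b3 at -0.63 ± 0.14. Cyp2e1, the ethanol-inducible form, was higher (0.67 ± 0.17): treated wells stayed at 21891 ± 364 and 20526 ± 2725 while vehicle wells fell from 9791 ± 991 to 5809 ± 1187. Its call was ended by leaving out 48 h treated replicate 5 (adjusted p = 0.0529). Probe sets of such gene families can also read close relatives.

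S100a6, Ccn2 and Fn1 were the 3 called of 30 measured genes that rise when hepatocytes lose their differentiated state in culture. All 3 were lower, beside 1.11% of all genes. The list median of -0.08 turned to 0.08 under median centring, which left 2 calls. S100a6, a calcium-binding protein, had signals of 21472, 25605, 26208, 26945 and 24212 in 24 h vehicle wells, 11975, 13191, 12727, 10819 and 13191 in 24 h treated wells, 27898, 29212, 30718, 22365 and 30652 in 48 h vehicle wells, and 4596, 4946, 5893, 6081 and 4168 in 48 h treated wells. The treated groups did not overlap each other or vehicle, and the S100a6 effect went from -1.01 ± 0.11 to -2.46 ± 0.11 (time dependence -1.45 ± 0.15, adjusted p = 1.07e-07). Ccn2, connective tissue growth factor, had the deepest effect of the named falls at both times, with means of 11935 ± 901 and 1557 ± 119 at 24 h and 17635 ± 1795 and 956 ± 161 at 48 h. Its effect was -2.93 ± 0.10 and then -4.19 ± 0.10. Fn1, fibronectin, went from -0.96 ± 0.07 to -1.52 ± 0.07.

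For another set the vehicle wells moved with time and the change in treated wells did not pass the threshold. Cryab, the small heat shock protein αB-crystallin, had signals of 5036, 4815, 5902, 6327 and 5189 in 24 h vehicle wells, 3892, 3913, 3918, 4193 and 3872 in 24 h treated wells, 14636, 14198, 14928, 8993 and 13813 in 48 h vehicle wells, and 3933, 3946, 4444, 4346 and 3030.3 in 48 h treated wells. Vehicle wells rose without overlap and treated wells overlapped between the times. The vehicle change was 1.27 ± 0.12 (adjusted p = 2.8e-09) and the treated change -0.02 ± 0.12 (adjusted p = 0.961), and the time dependence was -1.29 ± 0.17. Cav1, the coat protein of caveolae, followed the same course, with vehicle means of 907 ± 191 and 2011 ± 239.9 and treated means of 489 ± 114 and 474 ± 91.7. Pkdcc, a secreted protein kinase, went from 2838 ± 440.3 to 5945 ± 984 in vehicle wells and from 1377 ± 119.8 to 1278 ± 147 in treated wells. C13h1orf116 went from 324 ± 46.1 to 824 ± 168 in vehicle wells beside 276 ± 66.5 and 273 ± 18.7 in treated wells. Hspa1a, an inducible 70 kDa heat shock protein, was the other called member of 14 measured heat shock genes (-0.54 ± 0.11), with a vehicle change of 0.44 and a treated change of -0.10 (adjusted p = 0.51).

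**Figure D2:**
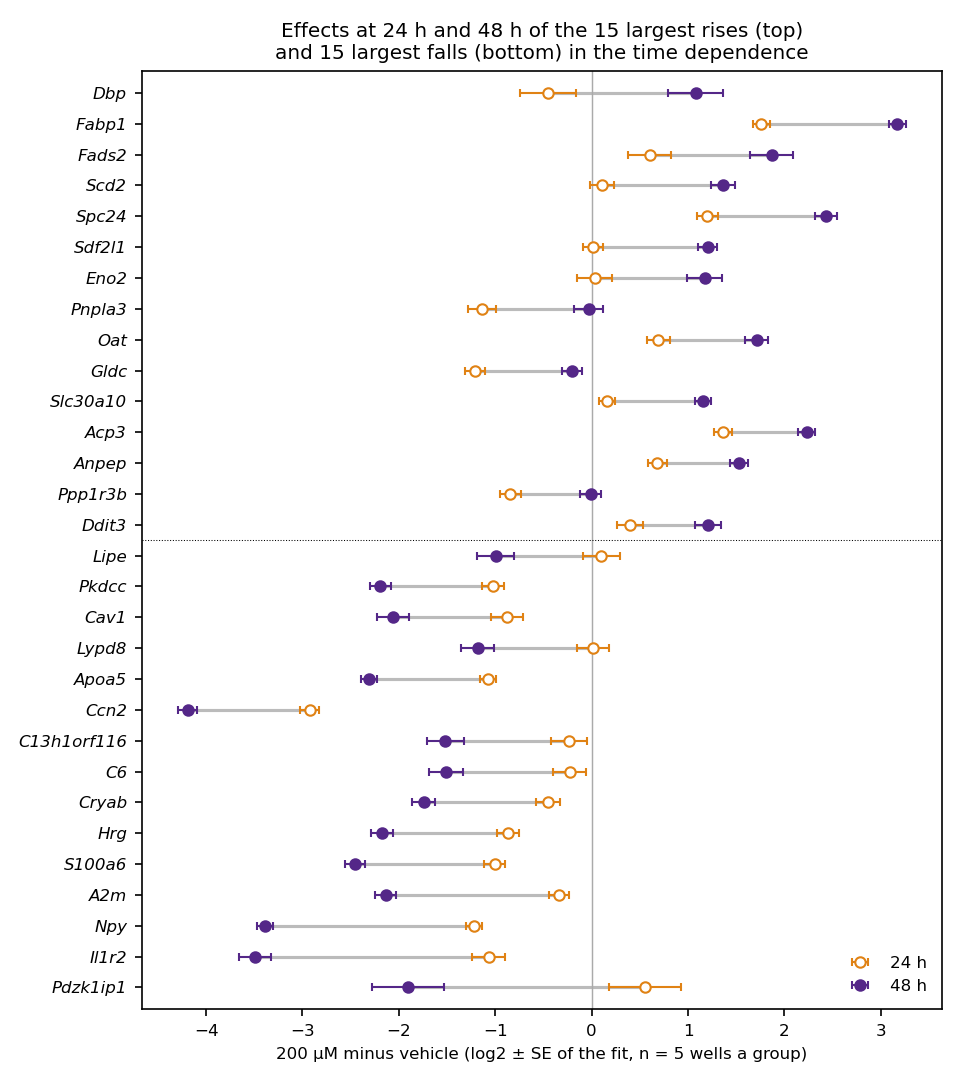
Effects of 200 µM against vehicle (log2 ± SE of the fit, n = 5 wells a group) at 24 h (open circles) and 48 h (filled circles) for the 15 genes with the largest rise and the 15 with the largest fall in time dependence. Npy and Il1r2 moved from near -1 to below -3, Fabp1 moved from 1.76 to 3.17, and Pnpla3 and Gldc moved from below vehicle towards 0.

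Among PPARα targets, Fabp1 stood out in the higher direction. Fabp1 encodes the liver fatty acid-binding protein, which carries fatty acids inside the hepatocyte. Its promoter is shown with that of Acadvl, very long-chain acyl-CoA dehydrogenase of mitochondrial β-oxidation, because both were called higher and both hold a DR1 element. A DR1 is a pair of AGGTCA half-sites 1 base apart in the same direction, searched on both strands with at most 1 mismatch over both half-sites. Sequences are from RefSeq (GRCr8), from 250 bases before to 50 after the gene's start, and capitals mark the match. The Fabp1 window is chr4:104749090-104749389, plus strand, with the match at -77 to -65 from the start on the reverse strand, and the Acadvl window is chr10:55236656-55236955, minus strand, with the match at -17 to -5.
Fabp1: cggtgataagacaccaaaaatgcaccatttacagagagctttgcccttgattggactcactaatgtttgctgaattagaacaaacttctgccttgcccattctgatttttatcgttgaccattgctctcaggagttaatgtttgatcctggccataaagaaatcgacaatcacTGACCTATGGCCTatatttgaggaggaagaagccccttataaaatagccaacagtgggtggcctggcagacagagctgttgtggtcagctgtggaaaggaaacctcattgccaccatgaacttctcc
Acadvl: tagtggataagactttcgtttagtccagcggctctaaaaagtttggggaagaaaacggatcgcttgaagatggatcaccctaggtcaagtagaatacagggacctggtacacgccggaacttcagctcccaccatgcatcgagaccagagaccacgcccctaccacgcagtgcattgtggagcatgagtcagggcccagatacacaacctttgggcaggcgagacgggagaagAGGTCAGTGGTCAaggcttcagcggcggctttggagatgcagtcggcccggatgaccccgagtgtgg
The element was found in 0.468% of 9624 tested genes with a window, in 3 of 122 genes called higher (the 2 above and Ak4) and in 0 of 105 called lower. A match is a description of these letters and no measure of binding.

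Fabp1 signals were 11969, 10744, 11850.4, 10364 and 11715 in 24 h vehicle wells, 35222, 41524, 42437, 32411 and 41448 in 24 h treated wells, 7547, 6872, 6883, 5295 and 8131 in 48 h vehicle wells, and 66800.5, 63065, 60704, 56339 and 63950.4 in 48 h treated wells. No group overlapped another: treated wells rose with time (0.69 ± 0.09) and vehicle wells fell (-0.72 ± 0.09). The Fabp1 effect went from 1.76 ± 0.09 to 3.17 ± 0.09, a time dependence of 1.41 ± 0.12 (adjusted p = 2.27e-09). Of 20 measured genes of fatty acid uptake and activation, Fabp1, Acsl3 (0.51 ± 0.14) and Acsm2 (0.75 ± 0.19) were called higher and 0 lower, with a list median of 0.12. Both Acsl3 and Acsm2 encode enzymes that activate fatty acids to their CoA esters. Their calls were ended by leaving out any 1 of 8 and 3 wells, with highest adjusted p-values of 0.0781 (without 24 h treated replicate 2) and 0.0581 (without 48 h treated replicate 5).

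Fatty acid oxidation genes were mostly above vehicle at both times. Of 20 measured mitochondrial genes 19 were higher than vehicle at both times, with median effects of 1.09 and 1.31, and Acadvl alone was called in the time dependence (0.34 ± 0.07, adjusted p = 0.00629). In that list 9 of 20 members had an unadjusted p below 0.05, and in the list of 14 peroxisomal genes 5 did, beside 13.6% of all genes. Without array 22 the mitochondrial calls were 3 higher and 1 lower and the list's median went from 0.13 to 0.02. Quantile normalization gave 4 and 1, with 4 higher peroxisomal genes, and median centring gave 0 in both lists. Acadvl treated means were 16823 ± 380.1 and 18291 ± 539.5, and vehicle means 8004 ± 275 and 6895 ± 626. Of 14 measured peroxisomal genes Hacl1 (0.43 ± 0.10) and Decr2 (0.42 ± 0.11) were called higher. Hacl1, which shortens 2-hydroxy and branched fatty acids, had treated means of 25956 ± 1120.3 and 24834 ± 1951 over vehicle means of 5223 ± 469.7 and 3715 ± 412. Decr2, a reductase for unsaturated chains, lost its call on leaving out any 1 of 7 wells (up to 0.0666, without 24 h vehicle replicate 5). Peroxin genes (15 measured) and acyl-CoA thioesterases (9 measured) held 0 genes called by limma, with an unadjusted p below 0.05 for 2 members of each. The thioesterase Acot1 had the largest effects of these lists, 8.69 ± 0.41 at 24 h and 7.76 ± 0.41 at 48 h, a difference of -0.93 ± 0.57 (adjusted p = 0.507).

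Cyp4a1 went the other way. It encodes the fatty acid omega-hydroxylase that is the classic marker of PPARα activation in rat liver. Cyp4a1 signals were 4680.3, 4458, 5417, 4752 and 5247 in 24 h vehicle wells, 70956, 67117, 81788, 66100.4 and 71070.2 in 24 h treated wells, 11123, 7984, 6422, 7471 and 8376 in 48 h vehicle wells, and 74863, 75317, 74372, 74926 and 66144 in 48 h treated wells. Treated wells overlapped between the times (0.04 ± 0.09, adjusted p = 0.88) and vehicle wells rose without overlap (0.73 ± 0.09), so the effect went from 3.86 ± 0.09 to 3.16 ± 0.09. The time dependence was -0.69 ± 0.13 (adjusted p = 0.00105). Rab30, a small GTPase of the Golgi, rose in both, from 2482 ± 398 to 5391 ± 862 in vehicle wells and from 14073 ± 406 to 19384 ± 2367 in treated wells, and more so in vehicle wells (-0.66 ± 0.13). Txnip, a thioredoxin-binding protein that responds to glucose, had vehicle means of 7219 ± 461 and 7264 ± 911 and fell in treated wells from 32068 ± 1282 to 24338 ± 1197 (-0.40 ± 0.10). It was the 1 called gene of 14 measured for ketogenesis and fasting.

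Of 20 measured genes of lipogenesis and triglyceride synthesis 7 were called higher and 0 lower, beside 1.3% and 1.11% of all genes. The list median was 0.31 against -0.01 over all genes, and 8 were called higher without array 22. Median centring left 1 of the 7 calls, with the list as far above all genes as before (0.31). Fads1 and Fads2 are the Δ5 and Δ6 desaturases that make polyunsaturated fatty acids. Fads1 signals were 806, 803, 1006, 915 and 878 in 24 h vehicle wells, 2046, 2201, 2007, 2086 and 2022 in 24 h treated wells, 2224, 2266, 2022, 1429 and 1348 in 48 h vehicle wells, and 7052, 5722, 6595, 8032 and 9173 in 48 h treated wells. Both groups rose with time and treated wells rose more, by 1.79 ± 0.13 against 1.03 ± 0.13, a time dependence of 0.76 ± 0.18 (adjusted p = 0.0151). Fads2 had vehicle means of 852 ± 375 and 799 ± 328 and treated means of 1283 ± 453 and 2811 ± 289. Its time dependence was 1.27 ± 0.32, and the call was ended by leaving out 24 h treated replicate 1 (1.12, adjusted p = 0.0559).

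Thrsp, a nuclear protein tied to lipogenic gene expression, crossed from below to above vehicle. Thrsp signals were 18720.4, 19606, 17650.0, 19225 and 20728 in 24 h vehicle wells, 14106, 14424, 14723, 13718 and 14521 in 24 h treated wells, 17997, 15727, 15306, 12033 and 16940.1 in 48 h vehicle wells, and 17914, 17570.2, 18810.5, 22069 and 19284 in 48 h treated wells. At 24 h treated wells lay apart below vehicle, and at 48 h the groups overlapped at 1 vehicle well. The effects were -0.42 ± 0.08 and 0.30 ± 0.08, both past the threshold (adjusted p = 5.7e-05 and 0.00216). Gpam, which starts glycerolipid synthesis, was at 0.52, the acyltransferases Agpat3 and Agpat2 were at 0.42 and 0.33, and Dgat2, which completes triglyceride, was at 0.29. The Dgat2 call was ended without 48 h treated replicate 1 (adjusted p = 0.0517) or replicate 4. Agpat2, Agpat3 and Gpam fell outside the rule for naming genes and are given because they were called.

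Scd2, a stearoyl-CoA desaturase that is not in the list, had signals of 479, 482, 463, 675 and 366 in 24 h vehicle wells, 510.4, 409, 540.5, 530.2 and 651 in 24 h treated wells, 1532, 1525, 1428, 1558 and 1304 in 48 h vehicle wells, and 3925, 3342, 3695, 4251 and 3785 in 48 h treated wells. The groups overlapped at 24 h and lay apart at 48 h, and the effect went from 0.11 ± 0.13 (adjusted p = 0.618) to 1.36 ± 0.13. The Scd2 time dependence was 1.25 ± 0.18, and 0.57 (adjusted p = 0.205) when the probe sets of the gene were averaged. Of 21 measured lipid droplet genes Pnpla3 and Abhd5, the co-activator of adipose triglyceride lipase (0.69 ± 0.09), were called higher and Lipe, hormone-sensitive lipase, lower (-1.10 ± 0.27). The Lipe call was ended without 48 h treated replicate 1 (adjusted p = 0.0505). Aqp7, a glycerol channel, was the 1 called gene of 25 for glycolysis, gluconeogenesis and glycerol (0.69 ± 0.11).

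**Figure D3:**
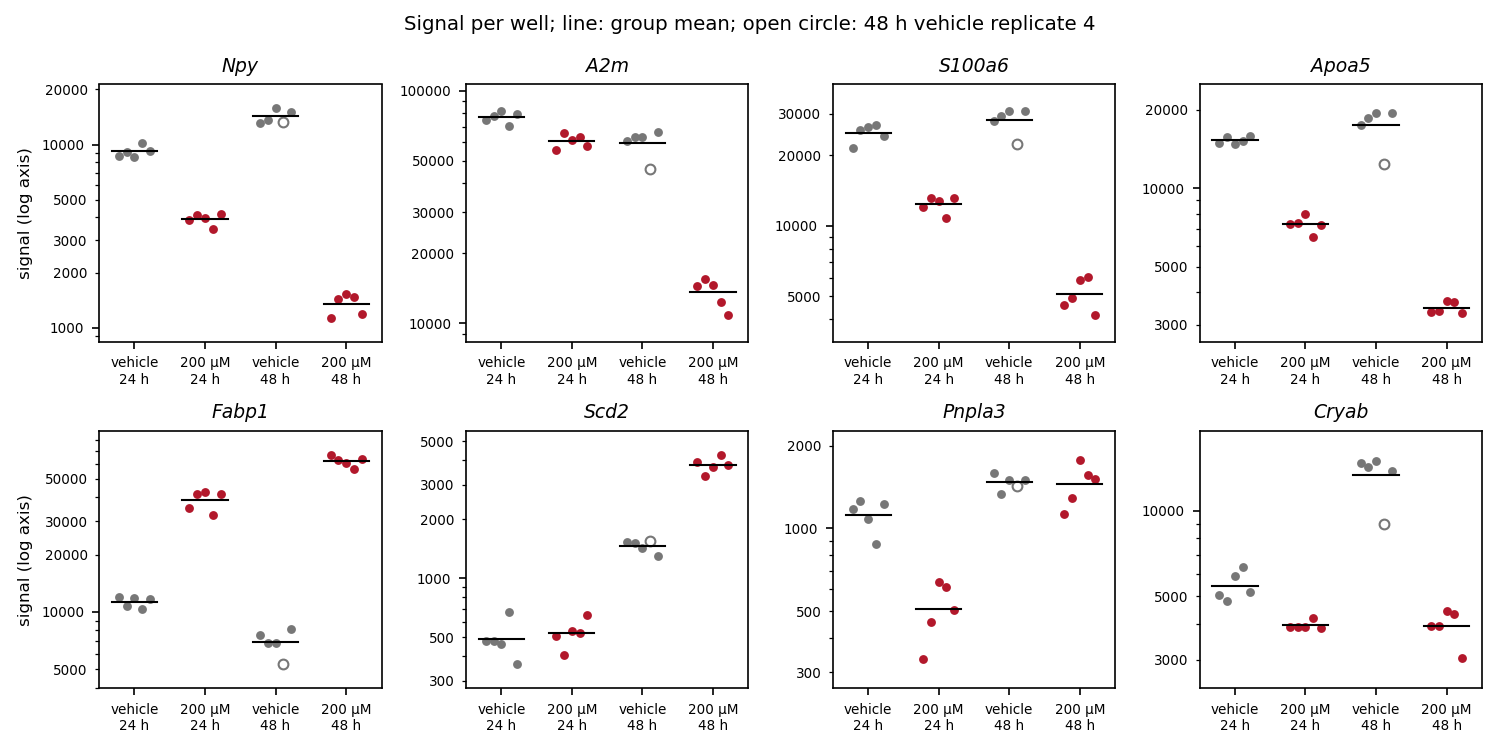
Array signal (log axis) of 8 genes in each of the 5 wells of the 4 groups, with a line at the group mean; grey is vehicle, red is 200 µM, and the open circle is 48 h vehicle replicate 4 (array 22). Npy, A2m, S100a6 and Apoa5 fall further in treated wells at 48 h, Fabp1 rises in treated and falls in vehicle wells, Pnpla3 is low in treated wells at 24 h alone, and Cryab moves in vehicle wells.

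With all arrays, a set of genes lay below vehicle at 24 h and was not past the threshold at 48 h, or crossed to the other side. Pnpla3, a lipid droplet protein that is induced by feeding, had signals of 1181, 1254, 1078, 879 and 1226 in 24 h vehicle wells, 335, 458, 636, 614 and 504 in 24 h treated wells, 1596, 1329.6, 1496, 1432 and 1505 in 48 h vehicle wells, and 1131, 1289, 1768, 1560.2 and 1518 in 48 h treated wells. The groups lay apart at 24 h and overlapped at 48 h. The Pnpla3 effect was -1.14 ± 0.15 and then -0.03 ± 0.15 (adjusted p = 0.897), a time dependence of 1.11 ± 0.21. Gldc, glycine decarboxylase, had treated means of 2406 ± 191 and 4516 ± 473 beside vehicle means of 5602 ± 347 and 5276 ± 1045 (1.01 ± 0.15). The overlap of the Gldc groups at 48 h came from vehicle replicate 4 alone, at 3518. The other vehicle wells at 48 h, from 5434 to 6312, all lay above the treated wells, of which the highest was 5091. So the place of Gldc in this set rests on that well, and its treated wells otherwise stayed below vehicle. Ppp1r3b, which targets a phosphatase to glycogen, had treated means of 2635 ± 315 and 4403 ± 363 beside vehicle means of 4767 ± 706 and 4489.5 ± 929.6 (0.84 ± 0.15). Dmgdh, a mitochondrial enzyme of choline breakdown, and the small GTPase Rab40b crossed from below to above vehicle, from -0.46 to 0.34 and from -0.36 to 0.19. Poteml2 went from -0.60 ± 0.09 to 0.11 ± 0.09 (adjusted p = 0.379 at 48 h).

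Among 24 measured NRF2 and antioxidant genes 3 were called higher and 0 lower, beside 1.3% and 1.11% of all genes. The list median was 0.11. All 3 were below vehicle at 24 h. Hmox1, heme oxygenase 1, had signals of 28930.5, 34000.1, 32343, 31532 and 33853 in 24 h vehicle wells, 24655, 27272, 23359, 24005 and 27594 in 24 h treated wells, 33907, 35661, 36562, 26899 and 37776 in 48 h vehicle wells, and 45139, 46330.1, 40029, 45438 and 33916 in 48 h treated wells. At 24 h all treated wells were below all vehicle wells, and at 48 h 4 of 5 treated wells were above them. The Hmox1 effects were -0.34 ± 0.09 and 0.30 ± 0.09, a time dependence of 0.65 ± 0.12 (adjusted p = 0.00205). Gclc, the catalytic subunit that limits glutathione synthesis, went from -0.70 ± 0.07 to -0.22 ± 0.07. Akr7a3, an aldehyde reductase, went from -0.56 to -0.11 (0.45 ± 0.12), a call ended by leaving out any 1 of 13 wells, with the highest adjusted p of 0.103 without 24 h vehicle replicate 3. Median centring left 0 of the 3 calls, with the list median as far above all genes as before.

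Of 22 measured genes for chaperones of the endoplasmic reticulum (ER) and the unfolded protein response, 5 were called higher and 1 lower. Over all genes 1.3% were called higher and 1.11% lower, and the list median was 0.00. Sdf2l1, a cofactor of the chaperone BiP (1373043_at), had signals of 4392, 4143, 3746, 3918 and 4351 in 24 h vehicle wells, 3887, 4436, 4336, 3526 and 4574 in 24 h treated wells, 2915, 3067, 2714, 2711 and 2605 in 48 h vehicle wells, and 5829, 5279, 5663, 7009.8 and 9207 in 48 h treated wells. The 24 h groups overlapped and the 48 h groups did not. The Sdf2l1 effect went from 0.01 ± 0.10 (adjusted p = 0.965) to 1.20 ± 0.10, a time dependence of 1.19 ± 0.14 (adjusted p = 1.92e-06). Dnajc3, a co-chaperone that also inhibits the kinase PERK, had vehicle means of 16007 ± 647 and 12566 ± 1244 and treated means of 17579 ± 742 and 21307 ± 1091 (0.63 ± 0.09). The protein disulfide isomerases Pdia6 (0.45 ± 0.09) and Pdia3 (0.37 ± 0.09) and the lectin chaperone Calr, calreticulin (0.41 ± 0.10), followed. Pdia3 fell outside the rule for naming genes. The Calr call was ended by leaving out any 1 of 4 wells (up to 0.0635, without 24 h treated replicate 1). Hspa5, which encodes BiP itself, was at 0.01 ± 0.10 (adjusted p = 0.991), and Hsp90b1 at 0.13 ± 0.11 (adjusted p = 0.669); both were chosen after their values were seen.

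Xbp1, the transcription factor that drives many of these chaperones, was the 1 called lower. Xbp1 signals were 19737, 19262, 21449.5, 19824 and 21413 in 24 h vehicle wells, 13239, 12989, 13354, 11965 and 13276 in 24 h treated wells, 18061, 18399, 18069, 15508 and 19916 in 48 h vehicle wells, and 8894, 8515, 8648, 7965 and 8443 in 48 h treated wells. Treated wells lay below vehicle at both times without overlap, and the Xbp1 effect went from -0.65 ± 0.05 to -1.08 ± 0.05 (time dependence -0.43 ± 0.08, adjusted p = 0.00088).

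The promoters of Calr, Dnajc3 and Xbp1 are shown because they hold the same element while Xbp1 moved opposite to the others. The ER stress response element is CCAAT, then 9 bases of any kind, then CCACG, searched on both strands after these values were seen. RefSeq windows (GRCr8) are chr19:40213117-40213416, plus strand, chr15:102432417-102432716, plus strand, and chr14:84604373-84604672, plus strand, with matches in capitals at -232 to -214 (reverse strand), -133 to -115 and -65 to -47.
Calr: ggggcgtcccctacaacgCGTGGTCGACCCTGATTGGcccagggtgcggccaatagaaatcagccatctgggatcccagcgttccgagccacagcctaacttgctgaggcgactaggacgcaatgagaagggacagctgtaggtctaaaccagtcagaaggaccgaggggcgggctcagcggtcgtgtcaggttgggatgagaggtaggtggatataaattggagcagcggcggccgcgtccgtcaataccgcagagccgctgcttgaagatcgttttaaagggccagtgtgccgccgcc
Dnajc3: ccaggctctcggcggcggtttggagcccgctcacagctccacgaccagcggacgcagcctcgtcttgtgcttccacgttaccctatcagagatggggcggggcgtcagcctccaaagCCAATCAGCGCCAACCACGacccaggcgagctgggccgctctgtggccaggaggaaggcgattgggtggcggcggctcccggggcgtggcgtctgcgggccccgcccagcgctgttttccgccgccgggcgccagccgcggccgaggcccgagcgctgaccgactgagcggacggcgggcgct
Xbp1: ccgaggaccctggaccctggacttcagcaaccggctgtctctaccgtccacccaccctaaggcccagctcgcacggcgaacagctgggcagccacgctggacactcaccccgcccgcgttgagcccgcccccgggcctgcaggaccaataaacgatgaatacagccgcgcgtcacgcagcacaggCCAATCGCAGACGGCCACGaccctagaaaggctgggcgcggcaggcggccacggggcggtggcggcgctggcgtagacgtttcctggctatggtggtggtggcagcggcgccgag
The element was in 0.156% of tested genes with a window and in 7 of 18 windows of the measured list of chaperones and the unfolded protein response. It was in 2 of 122 windows of genes called higher and 1 of 105 called lower, which are those shown. Its other holders in the list were not called. Sdf2l1 has no match in its window. Other motifs were searched on both strands in the windows of genes called higher, called lower and tested: TGATGNAA (the ATF4 composite element) was in 4.1%, 3.81% and 2.09%, CACGTG (E-box) in 9.84%, 4.76% and 9.41%, TGACNNNGC (antioxidant response element) in 16 of 122, 20 of 105 and 14.7%, GAANNTTC (heat shock element) in 4.92%, 6.67% and 5.67%, and TGACGTCA (cyclic AMP response element) in 0.82%, 0.952% and 3.07%.

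Some of these chaperones were also among the genes at which the doses parted. The time dependence at 200 µM differed from that at 8 µM for 9 of 11545 genes (0.078%), 7 higher and 2 lower, and 486 genes had an unadjusted p below 0.05. In this comparison the vehicle wells cancel. The 9 genes were called without array 22 too, among 12 higher and 8 lower. Median centring gave 1 higher and 0 lower. Without 24 h treated replicate 1 the number higher was 4, and without 48 h vehicle replicate 5 the number lower was 4. Of the 22 genes for ER chaperones and the unfolded protein response 4 were called higher and 0 lower: Sdf2l1 (1.27 ± 0.14, adjusted p = 5.35e-06), Calr (0.55 ± 0.10, 0.0146), Pdia3 (0.50 ± 0.09, 0.0125) and Dnajc3 (0.42 ± 0.09, 0.0316). At 8 µM Sdf2l1 signals were 2716, 3250.1, 3152, 3127 and 3474 at 24 h and 1886, 2096, 1896, 2260.3 and 1984 at 48 h. They went down with time at the low dose and up at the high dose, and the 2 doses did not overlap at either time. Calr at 8 µM gave 9158, 10025, 10506, 10508 and 11089 at 24 h and 7848, 9150.0, 8049.9, 7673 and 8834 at 48 h, against 10775, 11602, 11233, 12283 and 12706 and then 13927, 12688, 12825, 13408 and 17012 at 200 µM. The doses overlapped at 24 h and lay apart at 48 h. Dnajc3 means were 15041 ± 491 and 13644 ± 1003 at 8 µM.

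**Figure D4:**
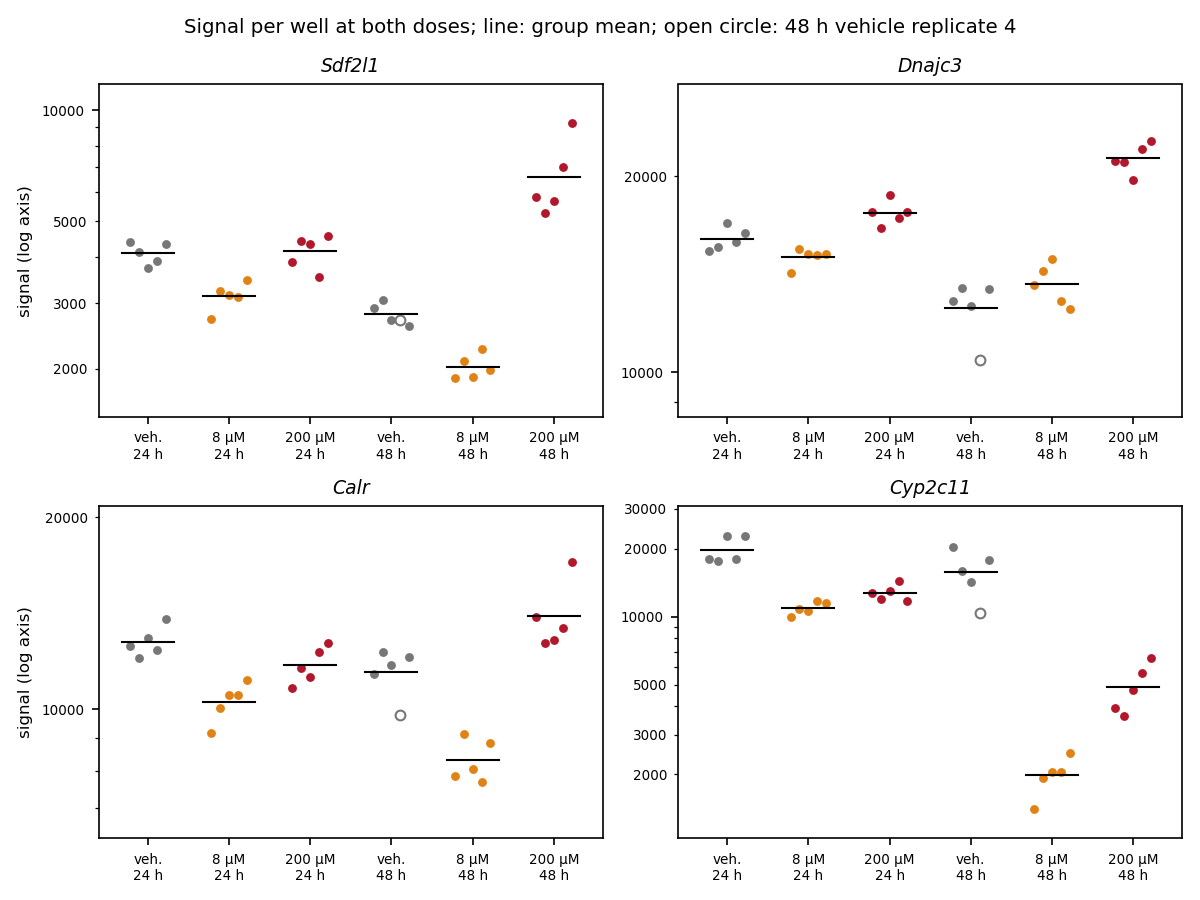
Array signal (log axis) of Sdf2l1, Dnajc3, Calr and Cyp2c11 in each well of the 6 groups, with a line at the group mean; grey is vehicle, orange 8 µM, red 200 µM, and the open circle is 48 h vehicle replicate 4. The 3 chaperones lie highest at 200 µM and 48 h, and Cyp2c11 lies lowest at 8 µM and 48 h.

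The dose difference was also called for Cyp2c11, Aqp9, Cyp2c6v1, Afm and Csad. Cyp2c11 signals at 8 µM were 9983, 10815, 10540.0, 11717 and 11475 at 24 h and 1409.8, 1924, 2039.5, 2058 and 2495 at 48 h, against 12766, 12014, 13023, 14389 and 11671 and then 3950.0, 3613, 4714, 5607 and 6541 at 200 µM. Both doses fell with time and the low dose fell further, a difference of 1.05 ± 0.21 (adjusted p = 0.0239). Aqp9, a glycerol and urea channel (0.74 ± 0.14), and Cyp2c6v1, a further P450 (0.62 ± 0.11), had the same sign. Afm, the vitamin E-binding protein afamin (-0.62 ± 0.10), and Csad, an enzyme of taurine synthesis (-0.51 ± 0.09), had the opposite sign. Afm means went from 10447 ± 702 to 6426 ± 647 at 8 µM and from 9395 ± 106 to 3767 ± 294 at 200 µM, and its own effect of 200 µM was not past the threshold at either time.

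Stress genes of the integrated response held 1 called higher and 1 lower of 27 measured (median 0.02). Ddit3, the transcription factor CHOP, had signals of 3843, 3439, 3584, 3755 and 3492 in 24 h vehicle wells, 5003, 4706, 4455, 4104 and 5694 in 24 h treated wells, 2802, 2550.4, 3061, 2423 and 2805 in 48 h vehicle wells, and 7314, 7648, 5268, 7512 and 4522 in 48 h treated wells. Treated wells lay above vehicle at both times without overlap, and the Ddit3 effect went from 0.39 ± 0.14 to 1.21 ± 0.14 (0.82 ± 0.19, adjusted p = 0.0151). Chac1, which degrades glutathione, was lower (-0.48 ± 0.13), a call ended by leaving out any 1 of 13 wells, with the highest adjusted p of 0.0995 without 24 h vehicle replicate 4. Of 15 measured p53 targets and apoptosis genes Cdkn1a, the cell cycle inhibitor p21 (-0.32 ± 0.07), and Gadd45b (-0.50 ± 0.11) were called lower.

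Among the remaining large rises, Spc24, a kinetochore protein, had vehicle means of 2070.3 ± 346 and 1170.3 ± 144 and treated means of 4732 ± 231 and 6387 ± 828 (1.23 ± 0.16, adjusted p = 4.12e-06). The list of cell cycle and DNA replication, 29 measured, held 0 genes called by limma, 1 of them with an unadjusted p below 0.05. Oat, ornithine aminotransferase, went from 8973 ± 994 to 14744 ± 1703 in treated wells (1.02 ± 0.16). It and Hgd, of tyrosine breakdown (0.73 ± 0.19), were the 2 called, both higher, of 34 measured for amino acid catabolism and ureagenesis. Slc30a10, a manganese exporter, went from 2025 ± 187 to 1267 ± 154 in vehicle wells and from 2251 ± 90.2 to 2837 ± 273 in treated wells (1.00 ± 0.12), the 1 call of 15 metal and iron genes. Dbp, a clock output factor, had the largest rise of the named genes (1.53 ± 0.41) from signals near the filter, with treated means of 277 ± 68.3 and 655 ± 127. It was the 1 call of 17 clock genes, and leaving out any 1 of 8 wells ended it (up to 0.0803, without 24 h vehicle replicate 4). Eno2, Acp3 and Anpep, an enolase, an acid phosphatase and aminopeptidase N, were at 1.14 ± 0.26, 0.87 ± 0.13 and 0.85 ± 0.14. Pdzk1ip1, a membrane protein, had the largest fall of the named genes (-2.46 ± 0.52) at low signals of 199 ± 91.6, 277 ± 72.7, 507 ± 172 and 125 ± 47.7 in 24 h vehicle, 24 h treated, 48 h vehicle and 48 h treated wells. Its 48 h vehicle mean rested on array 22 at 796. Without it that mean was 434 ± 66.6 (SD, n = 4), under the floor of 500 used for naming genes, and the time dependence was -2.28. Lypd8, a GPI-anchored protein, was at -1.20 ± 0.24.

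Other lists held few calls, beside 278 of 11545 genes tested (2.41%). A list of this size with 0 or 1 call lies near that share. The respiratory chain and citrate cycle had 2 of 33 higher (Ndufs1 0.40 and Sdha 0.37), calls that leaving out any 1 of 11 and 10 wells ended, up to 0.09 without 24 h vehicle replicate 3 and 0.0724 without 24 h vehicle replicate 4. One gene each was called for Irs2, the insulin receptor substrate (-0.70, of 14 growth hormone and insulin-like growth factor genes), Il6r, the interleukin 6 receptor (0.59, of 23 inflammation genes), Gsta3, a glutathione transferase (0.44, of 23 conjugation enzymes), Ctsd, a lysosomal protease (0.37, of 26 autophagy and lysosome genes), and Abcb4, the bile phospholipid exporter (-0.41, of 19 bile acid genes). Il6r lay below vehicle at both times without overlap. Its vehicle wells fell with time without overlap, and its treated wells overlapped between the times. The calls of Il6r, Ctsd and Hgd were each ended by leaving out any 1 of 6 wells and that of Abcb4 by any 1 of 14, with highest adjusted p-values of 0.0625, 0.0616, 0.0572 and 0.0906 without 24 h vehicle replicate 1, 24 h vehicle replicate 5, 24 h treated replicate 4 and 24 h treated replicate 4. Cyp4a1 was the 1 call of 11 omega-oxidation genes. No gene was called by limma among 20 of cholesterol synthesis, 20 mitochondrial carriers, 28 of the proteasome, 16 ribosomal proteins, 15 aminoacyl tRNA synthetases, 26 immediate early genes or 20 interferon genes. In the same order 6, 5, 9, 0, 0, 7 and 5 of them had an unadjusted p below 0.05, beside 13.6% of all genes. Without array 22, 3 immediate early genes, 1 interferon gene and 1 proteasome gene were called lower. In all, 66 of the 278 called genes stood in a list and 212 in none.

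**Figure D5:**
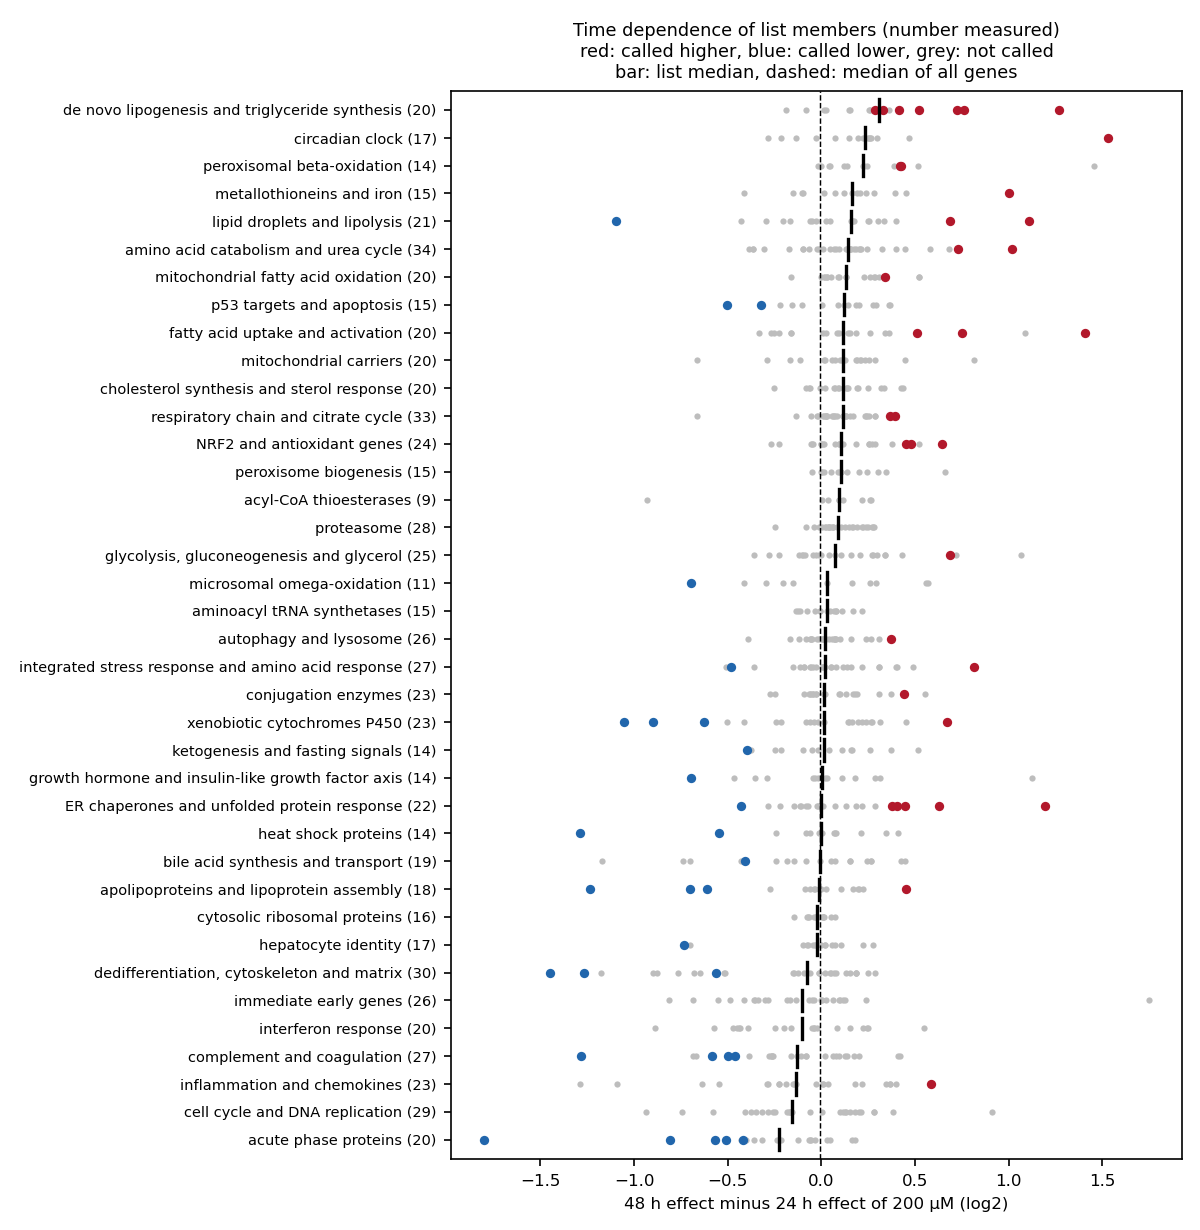
Each row is a gene list with the number of members measured, and each point a member's time dependence (48 h effect minus 24 h effect, log2); red is called higher, blue called lower, grey not called, the bar is the list median and the dashed line the median of all genes. Lipogenesis and triglyceride synthesis lies at the top with 7 red points, and acute phase proteins at the bottom with 5 blue points.

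Markers of hepatocytes were measured for 11 of 12 genes, with Tf not measured. Of them 2 were called lower, Ahsg (-0.73 ± 0.11) and Fgb, beside 1.11% of all genes. Serpina1 was added without array 22. Ahsg, which encodes fetuin-A, was also the 1 call of 17 hepatocyte identity genes. The summed marker signal ran from 580375 to 684563 in 24 h vehicle wells, 537739 to 589197 in 24 h treated wells, 436586 to 643550 in 48 h vehicle wells and 423289 to 476045 in 48 h treated wells. Markers of Kupffer cells and macrophages, 10 of 14 measured, summed to 30500.1 to 35312, 24474 to 28249.8, 22750.0 to 27812 and 18392 to 20038 in the same order, lower in treated wells and at 48 h. Adgre1, Marco, Ptprc and Vsig4 were not measured. Sums for 8 of 12 stellate cell markers ran from 4408 to 5012, 3645 to 4359, 4543 to 8774 and 3621 to 4697, those for 7 of 13 endothelial markers from 2780.3 to 3676, 2729 to 3437, 2244 to 5418 and 2019.7 to 2703, and those for 3 of 10 cholangiocyte markers from 8289 to 10445, 6922 to 7976, 10204 to 13401 and 9897 to 10649. The ranges of 48 h vehicle wells include array 22. The median sums of that group were 572614 for hepatocyte, 4989 for stellate and 2506 for endothelial markers. Epcam gave most of the cholangiocyte sum, with 9595 in 24 h vehicle replicate 1 beside 318 for Krt19 and 532 for Muc1. None of the measured non-hepatocyte markers was called in the time dependence, by limma with or without array 22, and 3 (2 Kupffer, 1 endothelial) had an unadjusted p below 0.05. The part of other cell types in the acute phase and complement values was not tested.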

How the data were processed

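The deposited values are intensity values, 1 signal per probe set, which the authors made with MAS5, per the submitters' processing notes; its version and scaling target are not given in the sources used here. All 30 arrays shared a trimmed mean near 1500.6, so they were left unscaled. Probe sets were named from the platform annotation. Probe sets below a signal of 281.361, the 40th percentile over the data set, in more than 25 arrays were dropped, and each gene was read from its brightest probe set (mean of log2), giving 11545 genes.

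All arrays were fitted with 1 mean per group on log2(signal + 16) in limma 3.58.1 (R 4.3.3; eBayes with a variance trend). Tests were two-sided, adjusted by Benjamini-Hochberg over all genes, at a threshold of 0.05. The number of arrays limits the precision. Tested on simulated data, the fit recovered 29.9%, 67.2% and 87.9% of genes changed by 0.5, 1 and 2 on the log2 scale.

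The comparison, the gene lists (972 genes, 802 measured) and the alternatives were chosen with earlier results of these data known. Genes were named by rule: the 15 largest rises and 15 largest falls called with and without array 22 with a mean signal of at least 500 in at least 1 of the 4 groups (all arrays), 3 per pattern, up to 4 per list, and up to 5 a direction for the dose difference. One gene that the rule names is not reported here. A few further list members are given and were chosen after their values were seen. Runs of 6 consecutive array numbers hold each group once; deviations of arrays within a run correlated between -0.13 and 0.099, so runs were not used as pairs. The alternatives were other pseudocounts, scalings, filters, gene summaries, variance models and samples. Plots were made with Python 3.11.15 and matplotlib 3.10.9.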

Additional observations from a re-analysis of the deposited data

Results flagged for a closer look

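The effect of 200 µM differed between 24 h and 48 h for 278 genes, each by the test of the difference itself. The change of the effect with time also differed between the doses, by the same kind of test, for Sdf2l1 (1.27), Cyp2c11 (1.05), Aqp9 (0.74), Cyp2c6v1 (0.62), Calr (0.55), Csad (-0.51) and Afm (-0.62), as 200 µM minus 8 µM on the log2 scale. These are the genes that the naming rule gave for the dose difference. In all 9 genes were called, with Pdia3 and Dnajc3 as the others.

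Single wells stood far from the other 4 of their group in 32 of 344 groups of 5 wells tested, over 85 named genes that were called and the array medians, where chance gives about 1 in 20. Of these, 20 were 48 h vehicle replicate 4 (array 22). Its array median was 765, above the others. Its signals lay below the other wells for the plasma protein genes A2m (46053), Cp (10441), Itih4 (19708), Apoa5 (12434) and Lcat (3789.9). They did so too for Il1r2 (3260.3), Cryab (8993), Ccn2 (14532.5), Pkdcc (4269), Gldc (3518), Acsl3 (1419.5), Mttp (5009), Gsta3 (12644) and Txnip (5701). The chaperones Dnajc3 (10439.5) and Pdia6 (18334) and the respiratory chain genes Ndufs1 (4548) and Sdha (7822) were also low there, and Irs2 (1996) was high.

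Among treated wells at 48 h, replicate 5 was high for Acsm2 (6032) and low for Cyp4a1 (66144) and Txnip (22240.0), and replicate 4 was low for Lcat (1619.99). In treated wells at 24 h, replicate 4 was high for Cryab (4193) and low for Dgat2 (12998) and Xbp1 (11965). In vehicle wells at 24 h, replicate 4 was low for Chac1 (2221) and Hgd (1921), replicate 3 was high for Ndufs1 (8351) and low for Rab40b (2259), and replicate 5 was low for Lypd8 (1073).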

How the results depend on the processing

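Numbers are genes whose 200 µM effect was higher and lower at 48 h (150 and 128), then genes whose time dependence was higher and lower at 200 µM than at 8 µM (7 and 2). Quantile normalization gave 228 lower, then 17 and 4. Median centring moved the median of all genes to 0.15 and gave 20 and 8 (71.4% higher, against 54.0%), then 1 and 0. It subtracts from each array its own median, which on array 22 was 765. With array 22 left out, centring put the median of all genes at -0.02 and gave 310 called genes, against 28 with it. The cause was not tested. Array weights gave 249 and 279, then 14 and 9. Without array 22 the others quantile-normalized gave 275 and 297, then 19 and 10, a filter chosen anew gave 268 lower, then 12 and 8, and median centring, chosen after seeing the data, gave 205 lower (33.9% higher) and 6 lower by dose. With only the 20 vehicle and 200 µM arrays 87 were higher. With only the arrays at 8 µM and 200 µM the counts by dose were 12 and 8. A fold of at least 1.5, which adds a condition, gave 45 and 67, then 4 and 1. Without a variance trend 4 were higher by dose, and probe sets tested singly gave 4 lower by dose.

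Leaving out each of the 20 arrays in turn gave 99 to 220 higher and 100 to 268 lower, then 4 to 12 and 2 to 8. The lowest count of higher genes, 99, came without 48 h treated replicate 1, and the largest came without array 22. A replicate block for runs of 6 arrays gave 156 and 133, then 9 and 2, and moved no count by over 1.5 times. No named gene that was called changed sign in any of the alternatives. Of the 30 genes named by size, 16 stayed below 0.05 in every alternative, 24 in every one but median centring, and 27 whichever array was left out. Being called without array 22 was a condition for naming these 30, so their passing without it was fixed in advance. Of 18 other probe sets of called named genes 5 passed in the same direction, 13 did not pass, and 18 had the same sign.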
